A study of Mus musculus with 24 samples.

Results

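Mitosis and chromosome segregation genes encode the machinery that carries a cell from the start of mitosis to the cut between its daughters. The members were the probes annotated to 50 listed genes, and 46 of these genes were found among the 16593 genes named on the array. Aurkb, Ccnb1, Racgap1 and Cenpf were not named on it. Each gene was read on its brightest probe by mean deposited intensity over 24 arrays, 32 members having 1 probe and 14 having several. The list was not chosen by a rule on measured values, but it was drawn up with earlier results of these data known.

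RNA came from fibro/adipogenic progenitors (FAPs), the mesenchymal progenitors of skeletal muscle that support regeneration and can form fat and scar, and was read on Illumina bead arrays after biotin labelling. Old activated FAPs and young activated FAPs were taken 3 days after injection of 50 µl of 50% glycerol, an agent that kills muscle fibres. Old quiescent FAPs and young quiescent FAPs came from uninjured muscle. Old mice were 20 to 24 months of age and young mice 2 to 4 months, all of them wildtype male C57BL/6J, and cells of the tibialis anterior, gastrocnemius and quadriceps were pooled. Each group held 6 arrays, described by the submitters as biological replicates. No source used here gives the sort markers. Column names carry a letter that is the same for all arrays of a group, and its meaning and the group cannot be told apart.

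Cells enter mitosis when the kinase encoded by Cdk1, bound to a cyclin, phosphorylates many targets, and leave it when the anaphase-promoting complex destroys the cyclins. Between these events kinetochores assembled on centromeric Cenpa chromatin attach chromosomes to spindle microtubules, and a checkpoint delays separation until all are attached. Transcripts of these genes rise late in the cell cycle under the factors Mybl2, Foxm1 and NF-Y. FAPs of uninjured muscle rarely divide, and they proliferate in the first days after injury.

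Mitosis genes were higher after injury at both ages. Levels below are log2 intensities after background correction with an offset of 16 and quantile normalization, on which a probe with no detected signal lies just above 4. A change is a difference of group means on this scale, given with its standard error (SE, n = 6 arrays per group), and a gene was called at a Benjamini-Hochberg adjusted p under 0.05 from limma over all features. In old FAPs 23 of the 46 members were called higher in activated cells and 0 lower, where 5.74% of all named genes were called higher and 5.5% lower. In young FAPs 27 of 46 were called higher and 0 lower, against 6.86% and 6.92% of all named genes. The median change was 0.60 in old and 0.97 in young FAPs, beside -0.01 in each over all named genes. No quiescent array detected 24 members in old and 30 in young FAPs. Of these, 3 in old and 14 in young FAPs were bright enough after injury for a lower bound on the fold, 8 in old and 3 in young FAPs were not, and 13 at each age had no signal in either state. Medians were also taken with the bounds in place and a change of 0 for the 8 and 3 members not bright enough. The 13 without signal in either state kept their fitted changes. These medians were 0.20 in old and 0.47 in young FAPs. An adjusted p printed beside a lower bound belongs to the fitted change from limma and does not test the bound. All 6 activated arrays lay above all 6 quiescent arrays for 18 of 46 members in old FAPs and for 25 in young FAPs, where 2.09% of all named genes in old and 5.32% in young FAPs did so. Of the members, only Cenpe in old FAPs lay the other way round, and no array detected it.

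**Figure D1:**
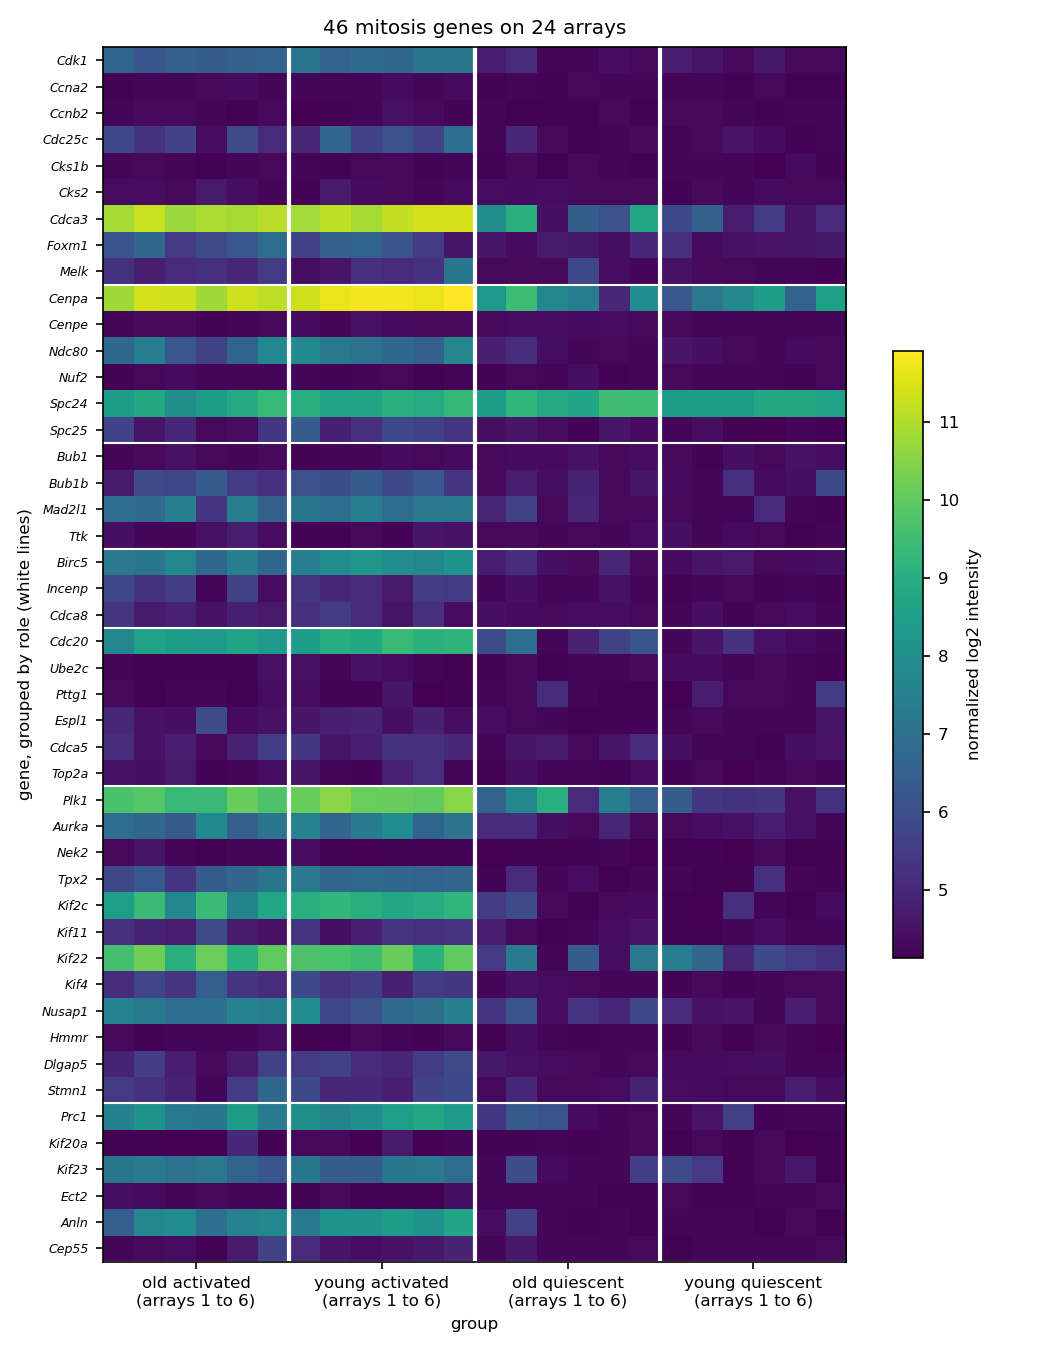
Normalized log2 intensity (colour) of 46 mitosis genes (rows, grouped by role between white lines) on each of 24 arrays (columns, 6 per group). Cdca3, Cenpa, Plk1 and Kif22 are bright on all 12 activated arrays, rows such as Ccna2 and Hmmr are dark on all 24, and Spc24 is bright on all 24.

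The members stood among the strongest risers of the whole array. Ranked by size of the rise over 16593 named genes, 7 of the largest 50 in old FAPs and 9 of the largest 50 in young FAPs were members. In old FAPs Cdca3 held place 5 and Kif22 place 6, and in young FAPs Cdca3 held place 2 and Plk1 place 5.

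Cdca3, Plk1 and Kif2c had the 3 largest changes in young FAPs, and their promoters are shown because late cell cycle genes are known for a pair of promoter elements. The sequences run 5′ to 3′ from 250 bases before to 50 bases after a RefSeq start of each gene (GRCm38.p6). They lie at chr6:124829926-124830225 on the plus strand for Cdca3, chr7:122159185-122159484 on the plus strand for Plk1 and chr4:117178723-117179022 on the minus strand for Kif2c. Capitals mark CCAAT, the letters of the NF-Y box, and TTTGAA, the letters of the cell cycle homology region, either of them on either strand (ATTGG and TTCAAA on the other).
Cdca3: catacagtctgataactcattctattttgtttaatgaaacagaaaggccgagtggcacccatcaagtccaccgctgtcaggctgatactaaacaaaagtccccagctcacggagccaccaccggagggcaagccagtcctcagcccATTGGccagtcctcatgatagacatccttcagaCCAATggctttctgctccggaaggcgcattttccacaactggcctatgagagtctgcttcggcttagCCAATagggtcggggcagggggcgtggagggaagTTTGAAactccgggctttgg
Plk1: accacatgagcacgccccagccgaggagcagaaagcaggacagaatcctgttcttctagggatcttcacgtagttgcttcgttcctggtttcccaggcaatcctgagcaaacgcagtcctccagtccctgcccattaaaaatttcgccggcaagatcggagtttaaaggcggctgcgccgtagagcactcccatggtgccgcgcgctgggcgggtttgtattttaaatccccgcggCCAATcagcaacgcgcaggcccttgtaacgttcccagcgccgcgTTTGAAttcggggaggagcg
Kif2c: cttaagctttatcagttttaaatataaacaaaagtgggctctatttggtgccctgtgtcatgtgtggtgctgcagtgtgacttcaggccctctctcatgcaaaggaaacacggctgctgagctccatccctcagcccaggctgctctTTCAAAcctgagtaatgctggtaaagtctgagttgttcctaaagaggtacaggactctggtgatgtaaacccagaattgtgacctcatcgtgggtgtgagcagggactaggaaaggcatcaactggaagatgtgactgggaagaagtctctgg
Cdca3 carried 3 CCAAT copies and Plk1 carried 1, each with 1 TTTGAA starting 30 bases after the start. Kif2c held no CCAAT in this window, and its only TTTGAA match began 103 bases before the start. This window lies inside the annotated span of Kif2c (117159633 to 117182624), not at its outer 5′ end, whose sequence was not searched here. The Cdca3 window also lies inside its gene's span, which begins at 124829530.

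Promoters were found for 40 of the 50 listed genes, 43 promoters in all. CCAAT stood in 72.1% of the 43, against 37.4% of all 32851 promoters in the RefSeq table, and at least 2 copies stood in 51.2% against 11.7%. TTTGAA or its variant TTCGAA, searched on both strands, stood in 76.7% of member promoters against 19.2% of all. The contrast was wider close to the start, where 74.4% of member promoters held one within 50 bases on either side, against 5.31% of all promoters. That window was chosen after the matches were seen. CCAAT stood in 68.2% of the 22 promoters of called members and in 72.2% of the 18 of uncalled members on the array, and TTTGAA or TTCGAA in 86.4% and 66.7% of them, differences that were not tested. A match describes these letters only and shows no binding.

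Of the genes that drive entry into mitosis, 4 of the 9 on the array were called higher at each age. Cdca3, which encodes an F-box protein of mitotic entry, read 10.75, 10.92 and 11.26 (lowest, median and highest array) in old activated FAPs and 4.44, 7.19 and 9.03 in old quiescent FAPs. In young FAPs it read 10.83, 11.20 and 11.43 in activated and 4.59, 5.29 and 6.52 in quiescent cells. The activated arrays were tightly grouped and clear of all quiescent ones at both ages, while the old quiescent arrays were widely spread. The change was 3.86 ± 0.55 in old (14.5-fold, adjusted p = 5e-05) and 5.78 ± 0.55 in young FAPs (54.8-fold, adjusted p = 1.49e-07). Its other probe, less bright, changed by 1.93 in old and 2.40 in young FAPs.

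Cdk1, the kinase that starts mitosis, read 6.22, 6.52 and 6.63 in old activated and 4.22, 4.33 and 5.07 in old quiescent arrays, a change of 1.99 ± 0.14 (adjusted p = 9.03e-09). It read 6.58, 6.96 and 7.14 in young activated arrays, and no young quiescent array detected it, so that its rise in young FAPs was at least 4.12-fold (adjusted p = 1.01e-10). These groups did not overlap at either age. Cdc25c, the phosphatase that frees Cdk1 of its inhibitory phosphates, changed by 0.97 ± 0.27 in old FAPs (adjusted p = 0.0221) and was at least 2.19-fold higher in young activated ones (adjusted p = 0.000109). Foxm1, a transcription factor of late cell cycle genes, was at least 2.24-fold higher in old activated FAPs and changed by 1.20 ± 0.28 in young FAPs, with adjusted p of 0.000444 and 0.00459. Its 2 probes gave like values.

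Melk, an embryonic kinase found in dividing progenitors, was called at neither age, with a change of 0.56 in old FAPs (adjusted p = 0.374). In young FAPs its activated arrays read 4.42, 5.16 and 7.16 and no quiescent array detected it (adjusted p = 0.0544). Ccna2 and Ccnb2, cyclins of Cdk1, and Cks1b and Cks2, its small adaptor subunits, were detected on 0 of 24 arrays. Their probes give no value for these transcripts in any group.

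At the centromere and kinetochore 2 of 6 members were called higher in old and 3 of 6 in young FAPs. Cenpa, the histone variant that marks the centromere, read 10.80, 11.24 and 11.41 in old activated FAPs, against 4.99, 7.83 and 9.48 in old quiescent FAPs. In resting cells it was detected on 5 of 6 old quiescent and all 6 young quiescent arrays. In young FAPs it read 11.32, 11.74 and 11.92 in activated and 6.26, 7.51 and 8.54 in quiescent arrays. The changes were 3.51 ± 0.50 in old (adjusted p = 5.41e-05) and 4.22 ± 0.50 in young FAPs (adjusted p = 2.63e-06), and neither pair of groups overlapped.

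The Ndc80 complex, which holds microtubule ends at the kinetochore, has 4 subunits in the list. Ndc80 changed by 2.23 ± 0.28 in old FAPs (adjusted p = 1.65e-05). It read 6.50, 7.16 and 7.83 in young activated arrays with no detection in young quiescent ones, at least 4.92-fold (adjusted p = 3.15e-07). Spc25, which joins it in the complex, was not called in old FAPs (adjusted p = 0.247), where 3 activated and 0 quiescent arrays detected it, and was at least 1.57-fold higher in young activated FAPs (adjusted p = 0.000321). Nuf2 was detected on no array.

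Spc24, the last of these subunits, gave 2 answers on its 2 probes. The brightest, detected on all 24 arrays, read 7.97, 8.63 and 9.34 in old activated and 8.40, 9.09 and 9.54 in old quiescent arrays. It read 8.61, 8.97 and 9.33 in young activated and 8.37, 8.52 and 8.84 in young quiescent arrays, and was called at neither age (changes -0.42 in old and 0.37 in young FAPs). The other probe, detected on 14 arrays, changed by 2.92 in old and 3.56 in young FAPs. Spc24 would therefore sit with the risers on its dimmer probe and does not on the one that the selection rule takes. Cenpe, the kinetochore motor that brings chromosomes to the spindle equator, was detected on no array.

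Among the checkpoint genes 2 of 4 were called at each age. Mad2l1, which forms the signal that blocks anaphase, ranged from 5.37 to 7.48 in old activated arrays and overlapped the old quiescent range of 4.28 to 5.62, with a change of 2.01 ± 0.29 (adjusted p = 5.72e-05). It read 6.88, 7.21 and 7.45 in young activated and 4.20, 4.27 and 5.09 in young quiescent arrays, a change of 2.76 ± 0.29 (adjusted p = 4.76e-07). Bub1b, a kinase-like partner in the same signal, changed by 1.03 ± 0.27 in old and 1.24 ± 0.27 in young FAPs (adjusted p = 0.0148 and 0.00261), with overlapping arrays at both ages. Bub1 and Ttk, the kinases that recruit the checkpoint proteins, were detected on no array.

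Of the 3 measured genes of the chromosomal passenger complex, which corrects faulty attachments, 2 were called higher in old and 3 in young FAPs. Birc5, its survivin subunit, read 6.75, 7.20 and 7.77 in old activated arrays, against 4.31, 4.60 and 5.15 in old quiescent arrays, a change of 2.54 ± 0.17 (adjusted p = 9.03e-09). It read 7.48, 7.91 and 8.25 in young activated FAPs, was detected on no young quiescent array and was at least 8.04-fold higher, with an adjusted p of 3.02e-11. The groups were separate at both ages. Incenp, the scaffold of the complex, was at least 1.06-fold higher in old and at least 1.21-fold higher in young activated FAPs (adjusted p = 0.0106 and 0.00386). Cdca8, the borealin subunit, missed the threshold in old FAPs (adjusted p = 0.0562), where 2 activated and 0 quiescent arrays detected it, and was at least 1.07-fold higher in young activated FAPs (adjusted p = 0.00235).

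Of 6 genes of sister chromatid separation, 1 was called in old and 2 in young FAPs. Cdc20, the activator of the anaphase-promoting complex, read 7.69, 8.34 and 8.67 in old activated and 4.28, 5.78 and 6.91 in old quiescent arrays, a change of 2.71 ± 0.32 (6.52-fold, adjusted p = 6.17e-06). In young FAPs it read 8.39, 9.05 and 9.41 in activated and 4.26, 4.42 and 5.24 in quiescent arrays, a change of 4.46 ± 0.32 (22.0-fold, adjusted p = 2.89e-09). All activated arrays lay above all quiescent ones. Its 4 probes changed by -0.08 to 2.71 in old and by 0.77 to 4.46 in young FAPs. Cdca5, the sororin that protects cohesin, changed by 0.29 in old FAPs (adjusted p = 0.419) and was at least 1.11-fold higher in young activated FAPs (adjusted p = 0.0131).

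Top2a, the topoisomerase that untangles sister DNA, was detected on 1 of 6 arrays in each activated group and on no quiescent array, and was not called (adjusted p = 0.743 in old and 0.151 in young FAPs). Espl1, the separase that cuts cohesin, was detected on 2 of 6 old activated, 1 of 6 young activated and 0 quiescent arrays and was not called (adjusted p = 0.071 in old and 0.303 in young FAPs). Pttg1, the securin that restrains it, was detected on 1 of 24 arrays, a young quiescent one, and was not called at either age. Ube2c, the ubiquitin-conjugating enzyme of the anaphase-promoting complex, was detected on no array.

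The spindle and its motors held the most called members, 9 of 12 in old and 10 of 12 in young FAPs. Plk1, the polo-like kinase that matures spindle poles, read 9.40, 9.70 and 10.10 in old activated and 5.04, 7.03 and 9.09 in old quiescent arrays, a change of 2.64 ± 0.43 (6.24-fold, adjusted p = 0.000219). In young FAPs it read 10.02, 10.14 and 10.58 in activated and 4.47, 5.31 and 6.42 in quiescent arrays, a change of 4.89 ± 0.43 (29.7-fold, adjusted p = 5.83e-08). The highest old quiescent array came close to the lowest old activated one without reaching it. Aurka, the kinase that acts beside Plk1 at the poles, changed by 2.21 ± 0.24 in old FAPs and was at least 4.99-fold higher in young activated ones (adjusted p = 2.9e-06 and 5.54e-08). Tpx2, which activates Aurka on microtubules, changed by 1.87 ± 0.24 in old and 2.43 ± 0.24 in young FAPs.

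The 4 kinesin motors of this group differed in the size of their change. Kif2c, which takes microtubules apart at wrongly attached kinetochores, read 7.64, 8.62 and 9.45 in old activated and 4.17, 4.34 and 5.92 in old quiescent arrays, a change of 3.83 ± 0.33 (14.2-fold, adjusted p = 1.07e-07). It read 8.79, 9.05 and 9.30 in young activated and 4.15, 4.21 and 5.20 in young quiescent arrays, a change of 4.69 ± 0.33 (25.8-fold, adjusted p = 2.44e-09). Kif22, the motor that pushes chromosome arms outward, changed by 3.85 ± 0.50 in old and 3.75 ± 0.50 in young FAPs. Kif4, a chromosome-bound motor, was at least 1.38-fold higher in old and at least 1.46-fold higher in young activated FAPs. Kif11, which pushes the poles apart, was called higher in old activated FAPs (adjusted p = 0.0419) with 3 activated and 0 quiescent arrays detecting it and no bound above 1, and was at least 1.13-fold higher in young activated ones.

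Nusap1, which bundles spindle microtubules, changed by 1.97 ± 0.31 in old and 2.28 ± 0.31 in young FAPs. Dlgap5, a stabiliser of kinetochore fibres, was called higher in old activated FAPs (adjusted p = 0.0375), also with 3 activated and 0 quiescent arrays detecting it and no bound above 1, and was at least 1.46-fold higher in young activated ones. Stmn1, which destabilises microtubules and is also expressed outside mitosis, had differences of 0.82 ± 0.29 in old FAPs, where it was not called (adjusted p = 0.0774), and 0.95 ± 0.29 in young FAPs (adjusted p = 0.0293). Nek2, a centrosome kinase, and Hmmr, a spindle assembly factor, were detected on no array.

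At the central spindle and in cytokinesis 3 of 6 members were called at each age. Prc1, which crosslinks the central spindle, read 7.19, 7.44 and 8.38 in old activated and 4.27, 4.87 and 6.33 in old quiescent arrays, a change of 2.51 ± 0.36 (adjusted p = 5.09e-05). In young FAPs it read 7.62, 8.16 and 8.79 in activated and 4.21, 4.27 and 5.60 in quiescent arrays, a change of 3.67 ± 0.36 (adjusted p = 2e-07). No array of an activated group lay within the range of its quiescent group. Anln, the anillin of the contractile ring, changed by 2.93 ± 0.26 in old FAPs and was at least 9.52-fold higher in young activated FAPs, where it read 7.29, 8.12 and 8.74 (adjusted p = 1.79e-07 and 1.27e-09). Its less bright probes, detected on 7 and 0 arrays, changed by 0.26 and -0.06 in old and by 0.83 and 0.07 in young FAPs. Kif23, the motor of the centralspindlin complex, changed by 2.17 ± 0.34 in old and 2.10 ± 0.34 in young FAPs. Kif20a and Cep55, which act in the last steps of division, were detected on 1 to 3 arrays and not called, and Ect2, which places the furrow, was detected on none.

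**Figure D2:**
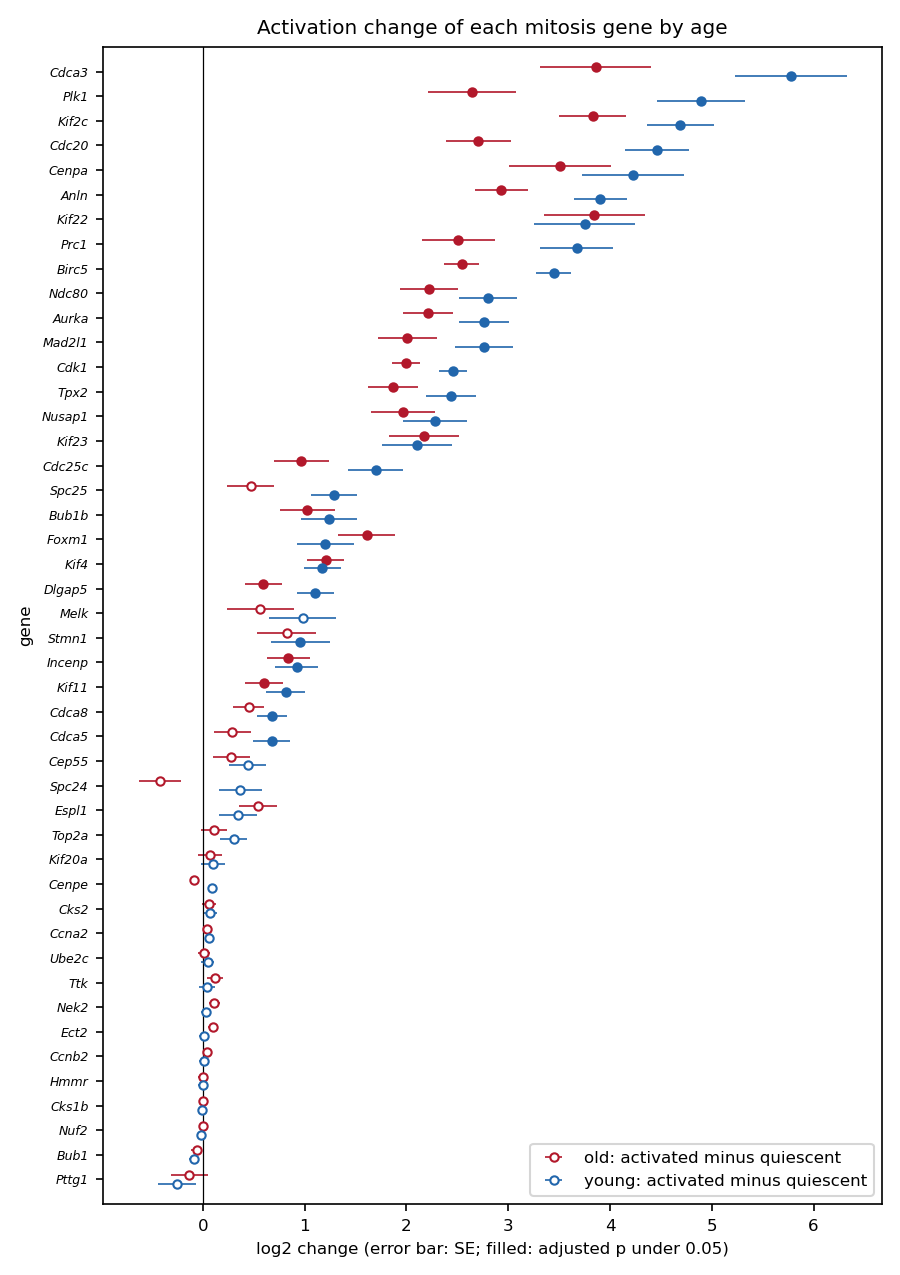
Activated minus quiescent change of each of 46 mitosis genes (log2, error bars SE), old FAPs in red above young FAPs in blue; filled points have an adjusted p under 0.05. Points are fitted values, also where no quiescent array detected the gene. The values run from -0.42 to 3.86 in old and from -0.26 to 5.78 in young FAPs, and most of the larger old values lie to the left of the young ones.

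Members that were not called were mostly members without signal. Of the 19 that were called at neither age, 12 were detected on 0 of 24 arrays, 5 on 1 to 5 arrays, and 2, Melk and Spc24, on at least 6. The 12 undetected members read between 4.14 and 4.75 on every array, and their activation changes lay between -0.09 and 0.12. Detection here means a deposited detection p under 0.01 against the array's negative controls. Several members had further probes with no signal: 2 of 3 for Kif4 and for Nusap1, and 1 of 2 for Ndc80, stayed undetected on all arrays. Cdk1, Anln, Melk and Cdc25c also had a probe that no array detected. For undetected members the arrays give no value, and a missing call says nothing of the transcript's level.

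Detection tells the same contrast as the levels. Old activated FAPs detected 18 members on all 6 arrays and 13 on none, and young activated FAPs detected 20 and 14. Old quiescent FAPs detected 1 member on all arrays and 24 on none, and young quiescent FAPs 2 and 30. Single arrays detected 21 to 30 members in old activated, 24 to 31 in young activated, 4 to 20 in old quiescent and 4 to 8 in young quiescent FAPs.

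Markers of other cells also differed between the groups. In bulk RNA, fewer cells of a type and less RNA per cell cannot be told apart. Of 16 macrophage and monocyte markers, 12 were called higher in old and 13 in young activated FAPs. Their summed normalized intensity ran from 21873 to 43379 in old activated and from 2318 to 31494 in old quiescent arrays, and from 7765 to 40388 in young activated and from 1815 to 2975 in young quiescent arrays. Ccr2 was detected on no array and Ptprc on 3 of the 12 activated and 0 of the 12 quiescent arrays, while Lyz2, Fcer1g, Tyrobp and the C1q genes were detected on all 24.

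Summed over the 46 members, in which bright probes weigh most, intensity ran from 8302 to 11226 in old activated and from 1690 to 3535 in old quiescent arrays, and from 10477 to 14049 in young activated and from 1466 to 1793 in young quiescent arrays. Within activated groups the order of the 2 sums varied. In old activated FAPs, array 1 had the highest macrophage sum and the lowest mitosis sum, and array 2 the reverse, while array 6 was second highest in both. Young activated array 1 likewise had the highest macrophage sum, 40388, and the lowest mitosis sum, 10477, and array 4 the lowest macrophage sum, 7765, and the second highest mitosis sum, 12496. Array 6 of that group had the highest mitosis sum and the third highest macrophage sum. From the lowest to the highest array the macrophage sum varied 1.98-fold in old and 5.20-fold in young activated FAPs, and the mitosis sum 1.35-fold in old and 1.34-fold in young ones.

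In old quiescent FAPs 1 array was high in both sums. Array 2 was highest in both sums, at 31494 and 3535, detected 20 members, and held the group's highest value for 23 of 46 members. Without it 22 members were called higher in old and 27 in young FAPs. The part of macrophages in the member levels of that group was not tested.

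**Figure D3:**
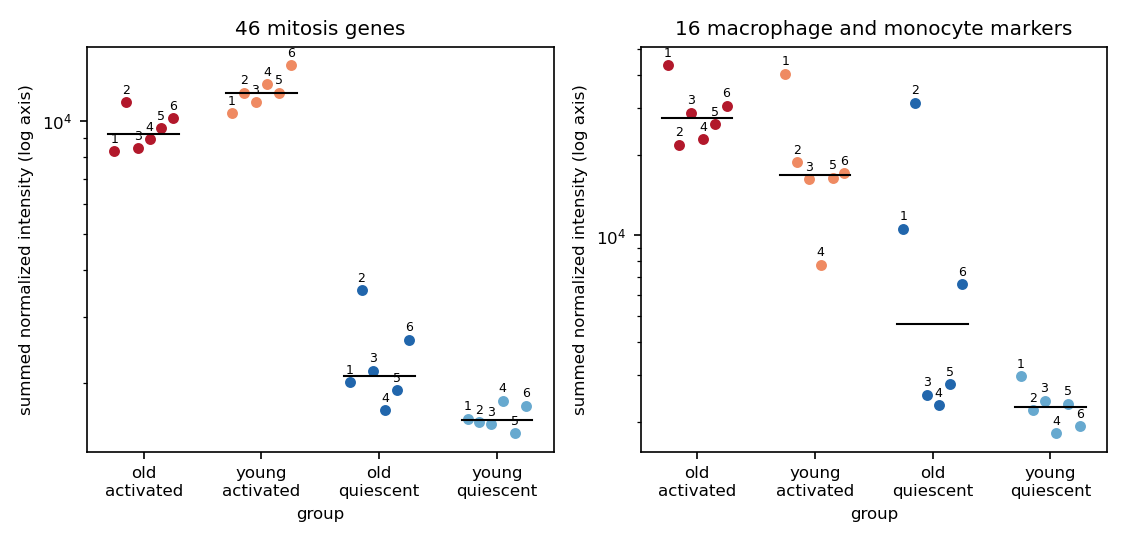
Summed normalized intensity (log axes) of 46 mitosis genes (left) and of 16 macrophage and monocyte markers (right), 1 point per array with its number, bars at group medians. Mitosis sums of the 12 activated arrays all reach at least 8302 and those of the 12 quiescent arrays at most 3535, while macrophage sums overlap between old quiescent array 2 and the activated groups.

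Most marker lists of other cell types had few calls or calls for lower levels. Of 13 FAP and fibroblast markers 6 were called lower in old and 8 in young activated FAPs. Among them were Pi16 (-2.94 in old, -3.94 in young), a marker of resting fibroblasts, and Pdgfra (-1.10 and -1.03), the defining FAP receptor, which all 24 arrays detected. Their sums ran from 12589 to 25080 in old activated against 30516 to 42142 in old quiescent arrays, and from 13683 to 20509 in young activated against 34769 to 45061 in young quiescent arrays. Endothelial markers were called lower in 4 of 10 cases in old and 9 of 10 in young activated FAPs, and erythroid markers in 2 of 3 at both ages. Lymphoid markers were called lower in 4 of 12 cases in old and 1 of 12 in young FAPs, and Schwann and pericyte markers in 0 of 5 and 2 of 5. Of 6 neutrophil markers only Csf3r was called, higher in old activated FAPs (0.76), and S100a8 had differences of 1.22 in old and 1.42 in young FAPs that were not called. Of 6 satellite cell and myoblast markers only Chrna1 was called, at least 2.96-fold higher in young activated FAPs. Pax7, Myf5 and Myod1, which define muscle stem cells and myoblasts, were detected on no array. The part of these cell types in the member changes was not tested.

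Neighbouring parts of the division programme were read from lists of other genes, drawn up with earlier results known. Beside the counts below, 5.74% of all named genes were called higher and 5.5% lower in old activated FAPs. In young activated FAPs these shares were 6.86% and 6.92%. Of 32 DNA replication genes 20 were called higher and 0 lower at each age. Its largest changes in young FAPs were those of Tk1 (3.96 in old, 4.71 in young), a thymidine kinase, Uhrf1 (2.46 and 3.62), which carries DNA methylation through replication, and Mcm10 (3.02 and 3.27), which helps fire origins. The median change over the 32 genes was 0.90 in old and 1.11 in young FAPs.

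Other centromere and kinetochore genes were called higher in 9 of 26 cases in old and 10 of 26 in young FAPs. Cenpp, Cenps and Cenpm, genes of the inner kinetochore, had the largest fitted changes in young FAPs. Cenpp changed by 1.34 in old FAPs and was at least 6.47-fold higher in young activated ones, and Cenps changed by 2.16 in old and 2.77 in young FAPs. Cenpm was at least 3.65-fold higher in young activated FAPs, and changed by 1.85 in old FAPs on a probe that no quiescent array detected, another of its probes being detected on 1. Condensin and cohesin genes were called in 2 of 16 cases in old and 3 of 16 in young FAPs, and those called were condensin subunits: Ncaph (2.38 in old, 1.88 in young), Ncapd2 (at least 1.87-fold in old, a change of 1.43 in young) and, in young FAPs, Ncapg2 (at least 1.88-fold). Of 20 other spindle genes 3 were higher in old and 6 in young FAPs, with Kif15 (a change of 1.93 in old, at least 2.85-fold in young) and Spag5 (changes of 1.98 and 2.10) called at both ages and Kif18b (at least 3.07-fold) in young FAPs.

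For the anaphase-promoting complex core, whose activator is Cdc20, 1 of 17 genes was called in old and 2 in young FAPs. Of all named genes 11.2% were called in old and 13.8% in young FAPs, either way. With 17 genes, these counts do not set the list apart from the array. The list of 17 genes also held Fzr1, Ube2s and Fbxo5, which are not core subunits. Of the 17, Anapc16 was called lower in old FAPs (-0.82), and Cdc23 (1.38) and Anapc15 were called higher in young FAPs. Anapc15 was read on a probe that no young quiescent array detected. Among 14 regulators of entry and exit, the kinase gene Pbk (2.64 in old, 2.90 in young) and Gtse1 (1.96 and 2.03), which acts in G2 and mitosis, were higher. Arpp19 (-1.05 and -1.35), an inhibitor of the phosphatase that opposes Cdk1, was lower at both ages.

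Of 23 G1 cyclins, E2F and DREAM factors 4 were called higher at each age. Mybl2, which switches late cell cycle promoters on, had a change of 1.63 in old FAPs that was not called (adjusted p = 0.0781) and one of 3.66 in young FAPs that was. E2f1, which drives S phase genes, changed by 2.10 in old and 2.20 in young FAPs. Ccnd2, a G1 cyclin, was lower in young activated FAPs (-1.32). Of 7 inhibitors of cyclin-dependent kinases only Cdkn1c was called, and it was lower at both ages (-2.93 in old, -3.36 in young). Its levels ran from 9.66 to 10.92 in old activated against 11.93 to 13.36 in old quiescent arrays, and from 9.16 to 9.93 in young activated against 12.56 to 13.07 in young quiescent arrays.

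**Figure D4:**
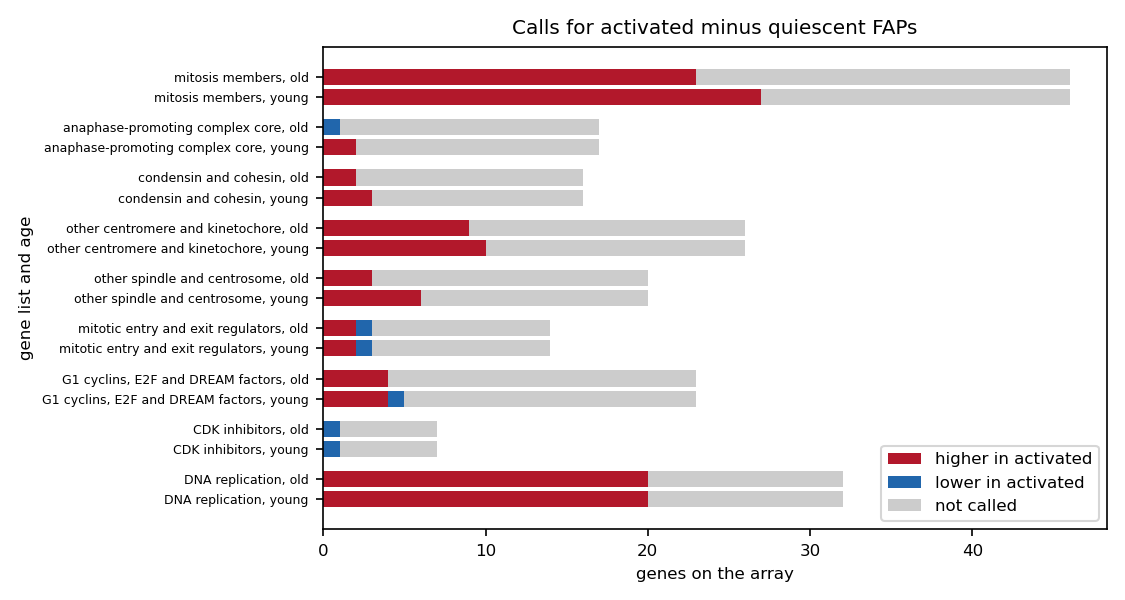
Number of genes on the array (bar length) in the mitosis list and 8 neighbouring lists, split into those called higher in activated FAPs (red), called lower (blue) and not called (grey), old above young. Mitosis members and DNA replication genes hold the most calls, and the list labelled anaphase-promoting complex core and inhibitors of cyclin-dependent kinases the fewest.

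The design also asks how age alters both states. Between old quiescent and young quiescent FAPs 0 of 46 members were called, where 0.181% of all named genes were called (30 genes, and 1446 at an unadjusted p under 0.05). An unadjusted p under 0.05 was found for 6 members, among them Cenpe, which no array detected. The largest differences belonged to Cdca3, Plk1 and Cdc20. Cdca3 read 4.44, 7.19 and 9.03 in old quiescent and 4.59, 5.29 and 6.52 in young quiescent arrays, a difference of 1.74 with a 95% interval from 0.60 to 2.87 (adjusted p = 0.267). Plk1 differed by 1.70 (0.80 to 2.59, adjusted p = 0.146) and Cdc20 by 1.09 (0.43 to 1.75, adjusted p = 0.211). Less bright probes gave smaller differences, -0.03 for Cdca3 and -0.16, 0.56 and 0.28 for Cdc20. Plk1 has 1 probe.

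For these genes the old quiescent arrays were more spread than the young quiescent ones. The standard deviation over 6 arrays was 1.78 in old quiescent and 0.74 in young quiescent FAPs for Cdca3. It was 1.37 and 0.62 for Plk1, and 0.95 and 0.37 for Cdc20. In activated FAPs that of Cdca3 was 0.19 in old and 0.26 in young arrays. The intervals above use a variance shared by all groups, so they understate the spread of the old quiescent arrays. Different arrays were high for different genes: Cdca3 read 9.03 on array 2 and 4.44 on array 3, while Plk1 read 9.09 on array 3 and 7.72 on array 2. Left out in turn, old quiescent array 3 brought Cdca3 and Cdc20 past the threshold (adjusted p = 0.0364 and 0.0449) and array 4 brought Plk1 past it (adjusted p = 0.00736). Whether these 3 genes were called therefore rested on single arrays. Among markers of other cells, 15 of 16 macrophage markers had a difference above 0 between the quiescent groups, with a median of 1.08 and none called, and the T cell genes Cd3d (2.66) and Cd3g (2.29) were called higher in old quiescent FAPs. Their part was not tested.

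**Figure D5:**
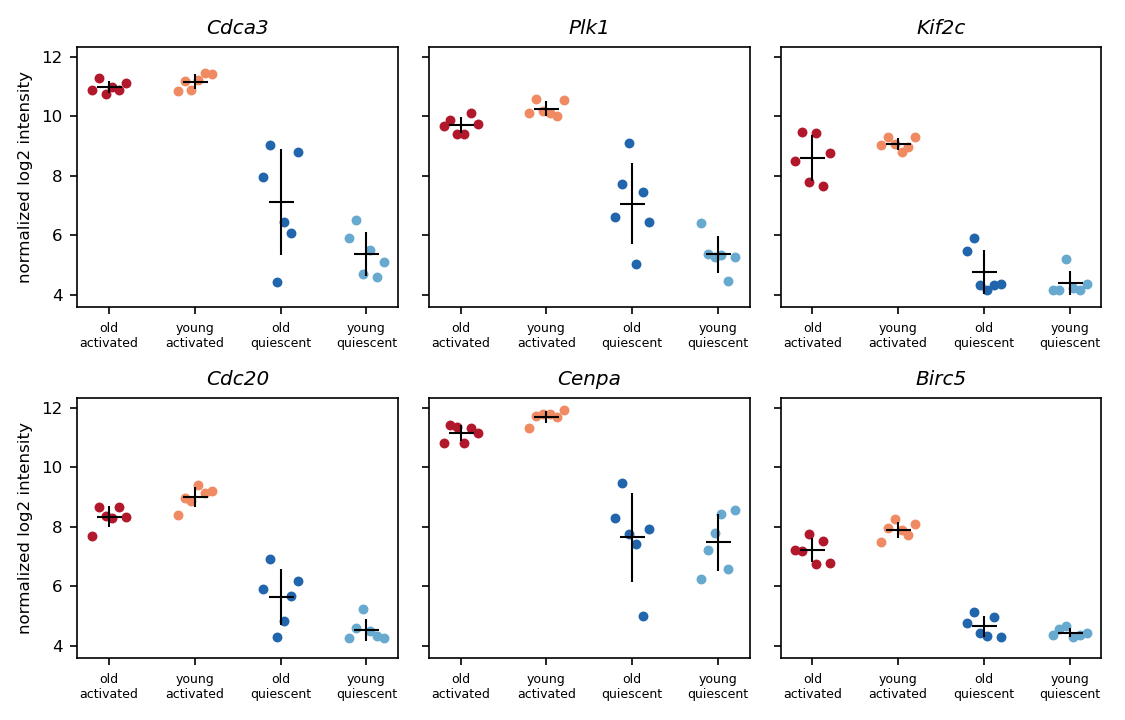
Normalized log2 intensity of 6 mitosis genes, 1 point per array in 4 groups of 6, with the mean and SD in black. Activated groups lie high. The old quiescent group is the most spread for Cdca3, Plk1, Cdc20 and Cenpa, and the old activated group for Kif2c and Birc5 (SD 0.78 and 0.40).

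Between old activated and young activated FAPs 0 of 46 members were called as well, where 0.0964% of all named genes were called (16 genes, and 1239 at an unadjusted p under 0.05). An unadjusted p under 0.05 was found for 9 members, again with the undetected Cenpe among them. The fitted difference was below 0 for 33 of 46 members, with a median over the 46 of -0.08 against 0.00 over all named genes. Of all named genes, 52% had a difference above 0. All members were read on the same arrays, so these signs are not separate results. Birc5 had the lowest adjusted p, 0.151, at a difference of -0.69 with an interval from -1.05 to -0.33, and all 6 old arrays lay below the young mean. Anln differed by -0.73 (-1.27 to -0.18, adjusted p = 0.423) and Cdk1 by -0.45 (-0.73 to -0.16, adjusted p = 0.294). The intervals of Kif2c (-1.16 to 0.20) and Kif22 include 0. The groups overlapped for all 46 members, and for all but 0.579% of all named genes. Markers of other cells differed between the same groups: 15 of 16 macrophage and 10 of 10 endothelial markers had a difference above 0, with medians of 0.73 and 1.04. Robo4 (2.16) and Gpihbp1 (2.09), endothelial genes, and Hba-a1 (2.25), a globin gene of red cells, were called higher in old activated FAPs. Their part in the member differences was not tested.

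The change upon activation itself was compared between ages through the interaction, old change minus young change. None of 46 members was called, where 0.0542% of all named genes were called (9 genes, and 994 at an unadjusted p under 0.05). An unadjusted p under 0.05 was found for 10 members, the undetected Cenpe again included. Robo4 (2.94), Gpihbp1 (2.77) and Hba-a1 (2.31) were among the 9 genes called. Of the 23 members called at both ages 19 changed less in old FAPs, by fitted values, with medians of 2.17 in old and 2.76 in young FAPs, or 2.17 and 2.32 with lower bounds in place. Of the 12 measured in all 4 groups, 10 changed less in old FAPs, with medians of 2.58 in old and 3.71 in young FAPs. These members were chosen by calls on the same changes and read on the same arrays, so the counts are not separate results. Over all named genes, 49.1% had an interaction above 0. The changes at the 2 ages share no array, but each interaction holds the age differences given above. Plk1 had an interaction of -2.25 with an interval from -3.52 to -0.98 (adjusted p = 0.301), Cdc20 one of -1.76 (-2.69 to -0.82, adjusted p = 0.264) and Cdca3 one of -1.92 (-3.53 to -0.31, adjusted p = 0.767). The less bright probe of Cdca3 showed a smaller gap, with changes of 1.93 in old and 2.40 in young FAPs. Each Cdc20 probe changed less in old FAPs. Without old quiescent array 4 the interaction of Plk1 was -2.65 and passed the threshold (adjusted p = 0.036).

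The 4 members called in young FAPs and not in old ones were Spc25, Stmn1, Cdca8 and Cdca5. Their interactions were not called, so a difference between ages is not shown for them. Kif22 (0.09), Kif23, Kif4 and Foxm1 (0.41) had a larger fitted change in old FAPs, and none of these interactions was called either.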

How the data were processed

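For each of 25697 probes on 24 arrays the deposited values are an intensity, not normalized per the file headers, and a detection p-value. A second deposited table holds normalized log2 values, for which the submitters' processing notes name only Partek. The deposited log2 values had a median of 6.71 in each column and differed by at most 0.118 from quantile-normalized log2 intensities without background correction. Detection p fell under 0.01 for 6587 to 9943 probes of an array. Precision is limited by how many arrays there are. Intensities were background-corrected with nec of limma (offset 16), which estimates the background through the detection p-values, followed by quantile normalization and log2 (R 4.3.3, limma 3.58.1). The probe annotation named 23978 probes, of which 23962 were found in RefSeq through their Entrez identifiers, and 1719 were unnamed. The brightest probe stood for a gene, with no filter on detection, giving 18312 features, and p-values were adjusted over all of them. Differences were tested with lmFit and eBayes on 4 group means, in 5 contrasts.

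Where no array of a group detected any probe of a gene, the fold is a lower bound, and none is given where the bound does not exceed 1 or both groups lack signal. For it, each array of that group was given the larger of 2 signals, the probe's and the lowest one detected on that array, before averaging. Only the test of differences was tried on simulated data, with changes placed in genes well above the level without signal. Background correction, normalization, probe choice and the lower bounds were not simulated. Named are all members, up to 3 called genes of each neighbouring list by size of the change in young FAPs plus at most 2 that moved oppositely, and other genes, chosen after their values were seen, where a count was small. The members and lists were chosen with earlier results of these data known, and roles were assigned after the values were seen. Old and young mice were compared in both states, and the replicate numbers were not used to pair arrays. Alternatives covered the detection filter, background, offset, scaling, probe choice, array weights, variance prior, replicate block, groups fitted and each array left out.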

Additional observations from a re-analysis of the deposited data

Results flagged for a closer look

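In 27 of the 184 sets of 6 arrays (46 members in 4 groups) 1 array lay far from the rest, its gap to the nearest array passing Dixon's 95% limit as a share of the group's whole range. For normally distributed values chance gives such an array in about 1 of 20 sets. Readings near the level without signal can hardly fall lower, so this rate need not hold here. In all 27 sets the outlying array was the highest. Of the 27, 15 lay in a group with at least 1 array on which the gene was detected, and the others are differences between readings without signal.

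Among groups with a detected array, the log2 levels were as follows. In old activated FAPs the high arrays were Kif20a array 5 (5.01, next 4.18) and Cep55 array 6 (5.72, next 4.69). In young activated FAPs the high arrays were Tpx2 array 1 (7.25, next 6.82) and Melk array 6 (7.16, next 5.25). In old quiescent FAPs the high arrays were Tpx2 array 2 (5.09, next 4.37), Anln array 2 (5.59, next 4.39), Melk array 4 (5.79, next 4.38) and Cdc25c array 2 (5.01, next 4.33). In young quiescent FAPs the high arrays were Cdc20 array 3 (5.24, next 4.59), Kif2c array 3 (5.20, next 4.36), Tpx2 array 4 (5.19, next 4.24), Mad2l1 array 4 (5.09, next 4.30), Prc1 array 3 (5.60, next 4.53), Foxm1 array 1 (5.21, next 4.63) and Stmn1 array 5 (4.74, next 4.40).

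Among groups in which no array detected the gene, the values were as follows. In old activated FAPs the high arrays were Ube2c array 6 (4.49, next 4.24), Nek2 array 2 (4.56, next 4.30) and Cks2 array 4 (4.65, next 4.41). In young activated FAPs the high arrays were Kif20a array 4 (4.69, next 4.33), Nek2 array 1 (4.39, next 4.21) and Cks2 array 2 (4.69, next 4.35). In old quiescent FAPs the high arrays were Bub1 array 4 (4.51, next 4.37), Kif20a array 6 (4.32, next 4.23), Pttg1 array 3 (5.14, next 4.32), Hmmr array 2 (4.46, next 4.27) and Cep55 array 2 (4.61, next 4.30). In young quiescent FAPs the high arrays were Espl1 array 6 (4.58, next 4.31).

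Old quiescent array 2 was the high array for Tpx2, Anln and Cdc25c, and its summed macrophage markers were the highest of its group. In young activated FAPs, Melk read 7.16 on array 6 and 5.25 on the next. The part of these arrays in the results was not tested beyond leaving each of them out.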

How the results depend on the processing

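The count of members called higher stayed within 20 to 25 in old and 26 to 30 in young FAPs under every alternative but one, and no called member changed direction. The exception was detection on all 24 arrays, which leaves Spc24 as the only member and so gave 0 called members at both ages, with 1502 genes called in young FAPs. Leaving out each array gave 21 to 24 members in old and 26 to 29 in young FAPs. With the replicate block, 25 members were called in old and 27 in young FAPs. The 24 correlations of same-numbered arrays lay between -0.08 and 0.34. The same-numbered array was the best match in some comparisons and not in others, so they do not settle whether arrays were paired.

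Kif11, Incenp, Dlgap5 and Cdc25c in old FAPs and Stmn1 in young FAPs lost their call under at least 1 alternative, with adjusted p up to 0.342 for Kif11 under scaling to the 75th percentile; the cause was not tested. Leaving out single arrays ended the call of Stmn1 in 7 of 24 cases, Kif11 in 11, Dlgap5 in 6 and Cdc25c in 3. Scaling to the 75th percentile moved the median of all named genes by 0.20 in the quiescent age comparison, -0.10 in old activation and -0.16 in the interaction, and member medians there were 0.29, 0.52 and -0.37.

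Leaving out 1 array raised the members called to at most 2 for age in quiescent FAPs and 1 for the interaction, against 0 and 0. Counts over all named genes moved more, for causes not tested. Fitted on its own 2 groups, old activation gave 1142 genes, age in quiescent FAPs 1 and age in activated FAPs 9. Age in quiescent FAPs gave 17 genes with an offset of 50, and from 11 (without young quiescent array 6) to 52 (without old quiescent array 4) with an array left out, with 12 and 13 without old quiescent arrays 5 and 6. Age in activated FAPs gave 37 with detection on all arrays and 37 with array weights, and from 9 (without old activated array 6) to 72 (without young activated array 1), with 25 and 10 without young activated arrays 2 and 5. The interaction gave 15 genes under either detection filter, 14 under 75th percentile scaling, 0 without a background step or with the deposited log2 values, and from 0 to 22 (without young activated array 1) with an array left out; it was 0 without old activated arrays 2, 4 or 5, old quiescent arrays 5 or 6, or young quiescent arrays 2 or 4. Low signal limits 12 members, which no array detected.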
